A study of Solanum lycopersicum with 2 samples.

Results

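The abundant genes of tomato with at least 10-fold more transcript in anthers than in young leaves numbered 117, of 25923 genes listed in either tissue. They were chosen from the levels themselves. The level is the number of reads per 1000000 mapped reads (RPM), the mean of the anther and leaf levels had to reach 100 RPM, and the ratio (anther RPM + 1) / (leaf RPM + 1) had to reach 10. Of the 1248 genes that met the limit on the mean, 9.38% met the ratio, and 5.29% met the same ratio towards the leaf. Over all 17137 genes with a mean of 1 RPM or more, 3.95% met the ratio towards the anther. As the members were picked by this contrast, their higher level in the anther is a description and carries no test.

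The study compared 1 library from anthers of mixed developmental stages with 1 library from young leaves of Solanum lycopersicum, cultivar Moneymaker. Both tissues were taken from untreated glasshouse plants at 8 weeks. The libraries were made by MACE, which sequences 1 tag from near the 3' end of each polyadenylated transcript, so that levels are not meant to scale with transcript length and need no length correction between genes. The stages pooled in the anther sample, and the number of plants behind either library, are stated nowhere in the labels. With 1 library per tissue there is no spread between replicates, and every difference below is a difference between these libraries.

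Anthers hold the male sporogenous tissue, the tapetum that surrounds and feeds it, and the outer wall layers that later open to release pollen. Tapetum and pollen are known for gene programmes that vegetative organs use little, among them the building of the pollen coat and wall, lipid transfer and the remodelling of cell walls. Leaf blades in contrast devote much of their transcript pool to photosynthesis. The files give each gene an identifier of the Solyc type, in which the leading digits are the chromosome and the number increases along it, and they do not pair identifiers with gene names. A RefSeq table of 41476 tomato genes (assembly SLM_r2.1) matched 0 of the 117 members. No member is therefore given a name or a function, no sequence could be shown for it, and the tissue labels were not checked against marker genes.

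Depth was similar, with 12411606 reads mapped for anthers (69.2% of them on 24538 listed genes) and 11534512 for leaves (72.5% on 22893). A single read was worth 0.0806 RPM in anthers and 0.0867 RPM in leaves. A count of 0 would allow up to 3 reads, or 0.242 RPM in anthers and 0.260 RPM in leaves. The intervals below cover counting error only, and the reads need not be independent molecules.

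The 117 members were 0.477% of the genes listed in anthers and took 20.1% of the anther reads on listed genes (95% exact binomial interval 20.1% to 20.2%). In leaves the same genes took 0.280% (0.276% to 0.283%). In whole organs, a difference in the number of cells that express a gene and a difference in RNA per cell cannot be told apart. Summed over members, the level was 139367 RPM in anthers and 2028 RPM in leaves, a 68.7-fold difference with a counting interval of 67.8 to 69.6. The other 1131 genes whose mean reached 100 RPM took 37.8% in anthers and 61.4% in leaves. Here and below, these 1131 include the 66 abundant genes that were 10-fold higher in leaf and the 554 that were less than 2-fold apart. The 66 genes higher in leaf took 0.788% in anthers and 13.7% in leaves. The members thus held a larger part of the anther library than their leaf counterparts held of the leaf library, and there were more of them.

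**Figure D1:**
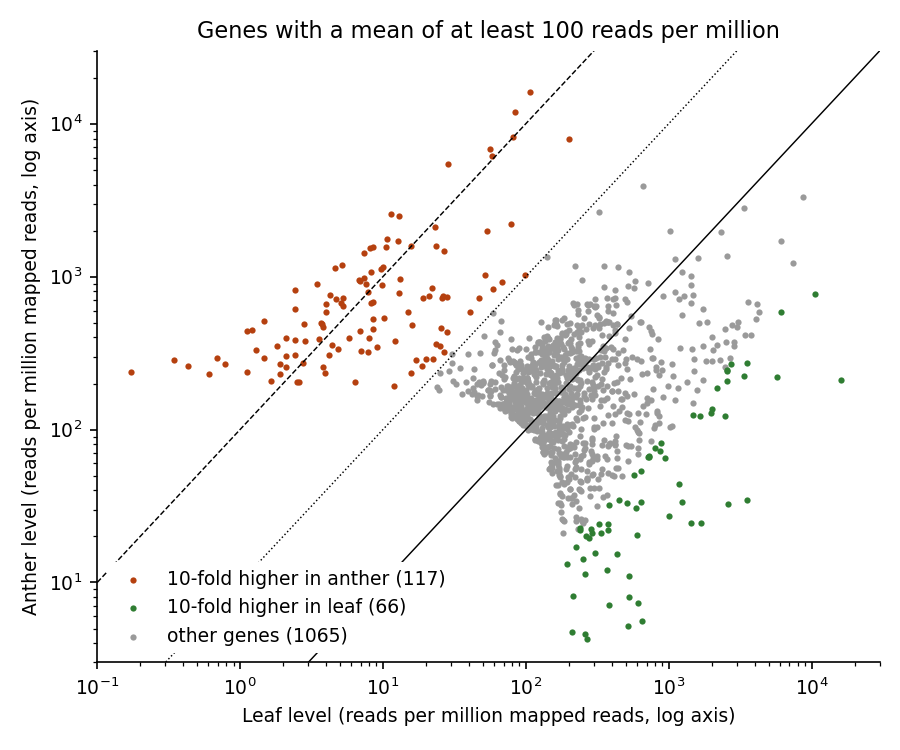
Level (RPM, log axes) in anthers (vertical) and in leaves (horizontal) of each of the 1248 genes whose mean over both reached 100 RPM. Lines mark equal levels (solid), 10-fold (dotted) and 100-fold (dashed) higher anther levels. The 117 members lie in a band above the dotted line that rises towards the right, with many points along the dashed line.

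Within the group the anther reads were concentrated in a few genes. The members ranged from 193 to 16143 RPM in anthers, with a median of 584 RPM and quartiles of 327 and 959 RPM. The 10 most abundant members held 50.1% of the members' anther reads, and 71 members held 90% of them. The 5 most abundant members were also the 5 most abundant of all genes in anthers, and 54 members stood among the 100 most abundant anther genes. The lowest member ranked 588 in anthers. In leaves 0 members were among the 200 most abundant genes, their best rank was 491 and their median rank 9414. As the rule asks for a high mean and a much lower leaf level, the ranks in both tissues follow in part from it.

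**Figure D2:**
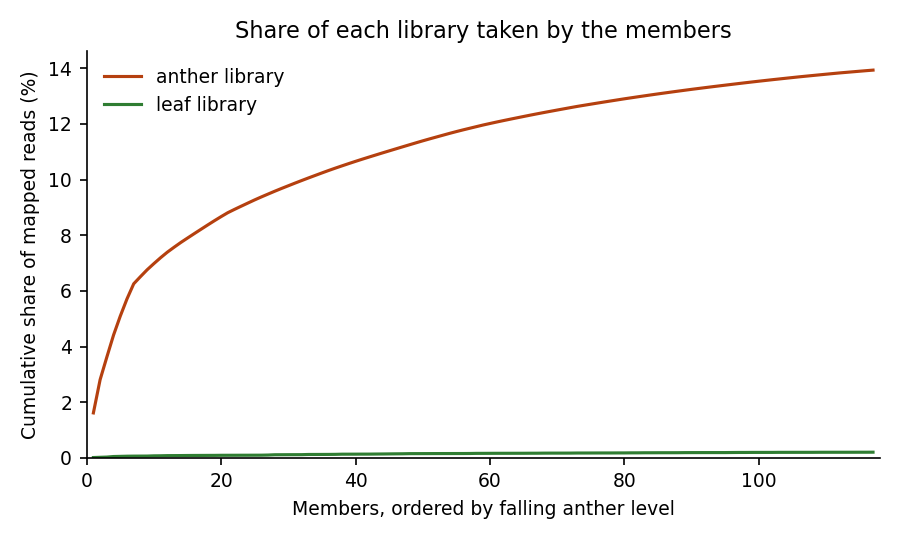
Cumulative share of mapped reads (vertical, percent) over the 117 members, ordered from the highest to the lowest anther level (horizontal). The anther curve climbs steeply over the first 10 members and ends at 13.9%, and the leaf curve ends at 0.203%.

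The most abundant member, Solyc01g009590.2 on chromosome 1, had 16143 RPM in anthers and 106 RPM in leaves. The difference was 152-fold (95% exact conditional Poisson interval 144 to 161). The next, Solyc01g086830.2 on the same chromosome, had 11939 RPM in anthers and 83.8 RPM in leaves, and was 142-fold higher (134 to 152). These leaders combine the largest anther levels with leaf levels that are far from 0, resting on 1226 and 967 leaf reads.

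Solyc07g007250.2 on chromosome 7 had 8126 RPM in anthers and 80.9 RPM in leaves, a 100-fold difference (94.2 to 107). Solyc09g008670.2 on chromosome 9 had 7922 RPM in anthers and 200.3 RPM in leaves, a 39.6-fold difference (38.0 to 41.2). Solyc06g064480.2 on chromosome 6 had 6810 RPM in anthers and 56.5 RPM in leaves, a 120-fold difference (112 to 130). Solyc09g008670.2 therefore had the highest leaf level of all members without the highest anther level, and Solyc01g009590.2 had the second highest leaf level. These 5 genes together held 36.6% of the members' anther reads, and their counts were all fractional in anthers.

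All 117 members were listed in the leaf file, 116 of them with more than 3 reads, although the rule would have taken a gene with no leaf entry. The same held outside the group, since each of the 588 genes with an anther level at or above that of the lowest member had a leaf entry. Leaf levels of members ran from 0.173 to 200.3 RPM, with a median of 7.98 RPM and quartiles of 3.55 and 19.9 RPM. In reads this was 2 to 2310, with a median of 92. A leaf level below 1 RPM was found in 6 members, from 1 to 10 RPM in 63 and of at least 10 RPM in 48.

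Expressed as a percentage of the member's own anther level, the leaf level had a median of 0.931%, with quartiles of 0.632% and 2.56%. It lay below 0.5% in 18 members, from 0.5% to 1% in 44, from 1% to 2% in 21, from 2% to 5% in 17 and above 5% in 17. The members thus crowded between 0.5% and 1% and thinned out above 2%, with 17 between 5% and the highest value of 9.68%. The 17 members above 5% are those less than 20-fold apart.

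The leaf level moved with the anther level across members, which the rule favours, since the highest leaf level that it allows rises with the anther level. In the 24 members below 300 RPM in anthers the median leaf level was 2.30 RPM. It was 4.42 RPM in the 31 members from 300 to 500 RPM and 8.41 RPM in the 34 members from 500 to 1000 RPM. In the 21 members from 1000 to 5000 RPM it was 11.4 RPM, and in the 7 members above 5000 RPM it was 80.9 RPM. The leaf level as a percentage of the anther level showed no such order: its medians in these classes were 0.922%, 1.37%, 1.17%, 0.769% and 0.830%.

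Across the 117 members, which are not independent replicates and share both libraries, the log levels had a Pearson r of 0.63 and the levels a Spearman rho of 0.58. The log percentage had a Pearson r of -0.08 with the log anther level. The rule bounds these values, because it caps the percentage at just under 10%. The highest leaf level allowed thus rises with the anther level, so the positive r and rho are partly set by the rule and are no test. The limit on the mean also keeps out low anther levels. Whether the leaf reads are transcripts of leaf cells, or reads or RNA carried over from the anther sample, was not tested. The leaf levels and folds given here do not separate these.

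The 66 abundant genes that were 10-fold higher in leaf were picked by the same rule turned round. Their anther level as a percentage of their leaf level had a median of 6.46%, with quartiles of 2.85% and 8.30%. It lay below 1% in 2 of the 66 genes, whereas the leaf level of the members lay below 1% of their anther level in 62 of 117. The lowest of these percentages was 0.856% for the leaf genes and 0.0725% for the members. With 1 library per tissue the difference between the groups could not be tested.

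**Figure D3:**
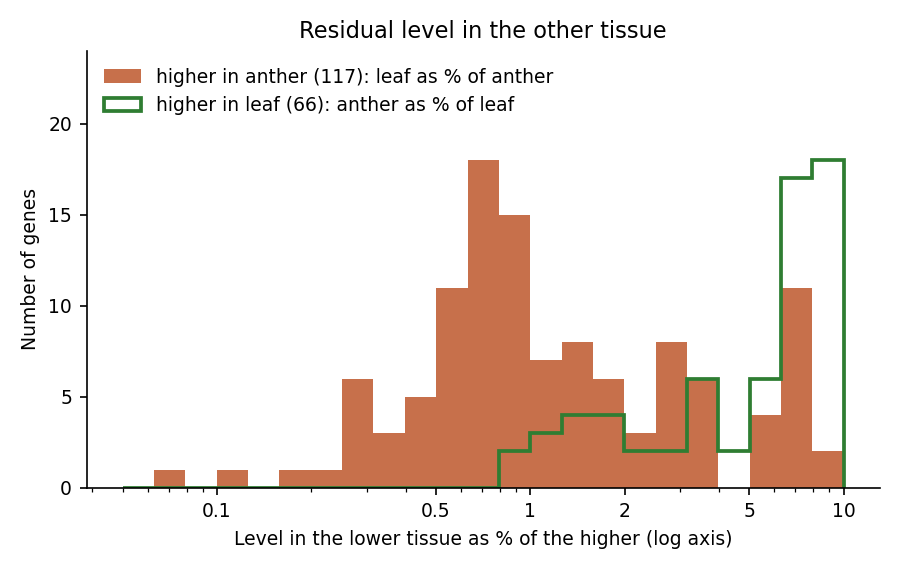
Number of genes (vertical) by their level in the lower tissue as a percentage of their level in the higher tissue (horizontal, log axis). Filled bars are the 117 members (leaf as a percentage of anther) and the outline is the 66 genes higher in leaf (anther as a percentage of leaf). The members pile up between 0.5% and 1%, and the leaf genes lie mostly above 5%, against the limit of the rule.

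Which members had the largest ratios depended on the value added to both levels. Solyc06g069220.1 had 813 RPM in anthers and 2.43 RPM in leaves, from 10092 and 28 reads. Its log2 ratio with the added 1 RPM was 7.89, the highest in the group, and its fold without it was 335 (232 to 504). Solyc02g078050.2 followed with a log2 ratio of 7.74 from 287 RPM in anthers and 0.347 RPM in leaves, the second lowest leaf level, which was 4 reads. With 0.1 RPM added, the log2 ratio of Solyc06g069220.1 was 8.33, below 9.33 for Solyc02g078050.2 and 9.77 for Solyc08g079910.1. With 5 RPM added it was 6.78, below 7.35 for Solyc01g099540.2.

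The lowest leaf level belonged to Solyc08g079910.1 on chromosome 8. It had 239 RPM in anthers and 0.173 RPM in leaves, from 2969 reads and 2 reads. With so few leaf reads its fold of 1380 had a counting interval of 382 to 11397. In all, 62 members were more than 100-fold higher in anthers without the added 1 RPM, and for 44 of these the counting interval lay wholly above 100. The ranking among the steepest members is therefore limited by the leaf counts, which were below 30 reads in 24 members.

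At the other end, Solyc04g050730.2 on chromosome 4 was the member nearest to the limit on the ratio. It had 1025 RPM in anthers and 99.2 RPM in leaves, a ratio of 10.2. Its fold without the added 1 RPM, 10.3, had a counting interval of 9.72 to 11.0, the only one among the members to reach below 10. Solyc08g080570.2 had 323 RPM in anthers and 26.6 RPM in leaves, a ratio of 11.7. Solyc06g069790.2 had 291 RPM in anthers and 22.3 RPM in leaves, a ratio of 12.6.

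Just outside the limit, Solyc09g083380.2 had 313 RPM in anthers and 30.6 RPM in leaves, a ratio of 9.93. Solyc09g009260.2 had 575 and 58.7 RPM in anther and leaf, a ratio of 9.66, and Solyc05g005710.2 had 1337 and 141 RPM, a ratio of 9.42. The genes on both sides of the limit thus overlapped in level and differed little in ratio. By the mean, Solyc11g020960.1 was the lowest member with 102 RPM, and Solyc03g118780.2, with a mean of 99.6 RPM and a ratio of 14.4, was the nearest gene left out.

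Some of the members lay side by side in the genome. Members on 1 chromosome whose identifier numbers were at most 20 apart, which is the next number or the one after it, were taken as a tandem cluster. Position is all that this shows, since the files hold no sequence and no gene names from which a shared family could be read. There were 11 such clusters with 24 members, 20.5% of the group: 1 cluster of 4 genes and 10 of 2 genes. These 24 members held 26.9% of the members' anther reads. By the same definition 6.06% of the 66 genes higher in leaf and 12.1% of the 554 abundant genes less than 2-fold apart had such a neighbour within their own group. The share was 21.8% of the other 1131 genes whose mean reached 100 RPM and 97.1% of all listed genes. Larger groups meet by position more often, and no test of these shares was run.

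The cluster of 4 lay on chromosome 9 and ran along 1 strand. Solyc09g084450.2 had 1597 RPM in anthers and 23.5 RPM in leaves. Solyc09g084470.2 had 1982 RPM in anthers and 53.6 RPM in leaves. Solyc09g084480.2 had 2125 RPM in anthers and 23.1 RPM in leaves.

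Solyc09g084490.2 had 848 RPM in anthers and 22.0 RPM in leaves. The 4 genes were thus within 2.51-fold of each other in anthers, and together they had 6552 RPM there and 122 RPM in leaves, a 53.6-fold difference of sums. The gene between the first and second, Solyc09g084460.2, was left out by its level and not by its ratio. It had 89.6 RPM in anthers and 4.52 RPM in leaves and a log2 ratio of 4.04. All 4 members had fractional anther counts and 3 had fractional leaf counts, so the level of each depends on how divided reads were assigned.

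The highest clusters of 2 genes lay on chromosomes 1, 7 and 3. Solyc01g086820.2 had 746 RPM in anthers and 21.2 RPM in leaves, beside Solyc01g086830.2, whose anther level given above was 16.0 times as high. Solyc01g099530.2 had 441 RPM in anthers and 6.94 RPM in leaves. Its neighbour Solyc01g099540.2 had 5431 RPM in anthers and 28.4 RPM in leaves, a 191-fold difference (171 to 214).

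In each of these chromosome 1 clusters a gene of very high anther level stood beside a much lower one on the opposite strand. Whether reads were counted by strand is not stated. If they were not, reads of such genes could not be told apart where the genes overlap, and overlap was not checked. Another cluster on opposite strands, on chromosome 7, had nearly equal anther levels. There Solyc07g006560.2 had 669 RPM in anthers and 8.24 RPM in leaves, and Solyc07g006570.2 had 751 RPM in anthers and 26.4 RPM in leaves.

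The other 7 clusters of 2 genes each ran along 1 strand. Solyc07g007730.2 had 2563 RPM in anthers and 11.4 RPM in leaves. Solyc07g007750.2 had 1481 RPM in anthers and 26.8 RPM in leaves. The gene between them, Solyc07g007740.1, had 1 anther read and 0 leaf reads, so this cluster skips a gene that was near the detection limit.

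On chromosome 3, Solyc03g098780.1 had 723 RPM in anthers and 47.2 RPM in leaves. Its neighbour Solyc03g098790.1 had 1420 RPM in anthers and 7.37 RPM in leaves. The fold of the first was 15.3 (14.0 to 16.7) and that of the second was 193 (156 to 241), so neighbours that were alike in anthers could differ over 10-fold in their contrast with the leaf. Both had whole-number counts in both libraries.

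In the remaining clusters the anther levels of member neighbours were less than 2-fold apart. The rule leaves out genes of low anther level, and the quartiles over all members were 327 and 959 RPM. Likeness in anthers is thus a description without a test. The chromosome 3 cluster from Solyc03g020060.2 to Solyc03g020080.2 had 1390 RPM in anthers and 11.4 RPM in leaves as a sum, with log2 ratios of 6.69 and 6.70. The gene between them, Solyc03g020070.2, had 143 RPM in anthers and 1.17 RPM in leaves and a log2 ratio of 6.05, and again missed the group by its mean alone. Over the 11 clusters the fold of the summed levels ran from 32.3 to 238.

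**Figure D4:**
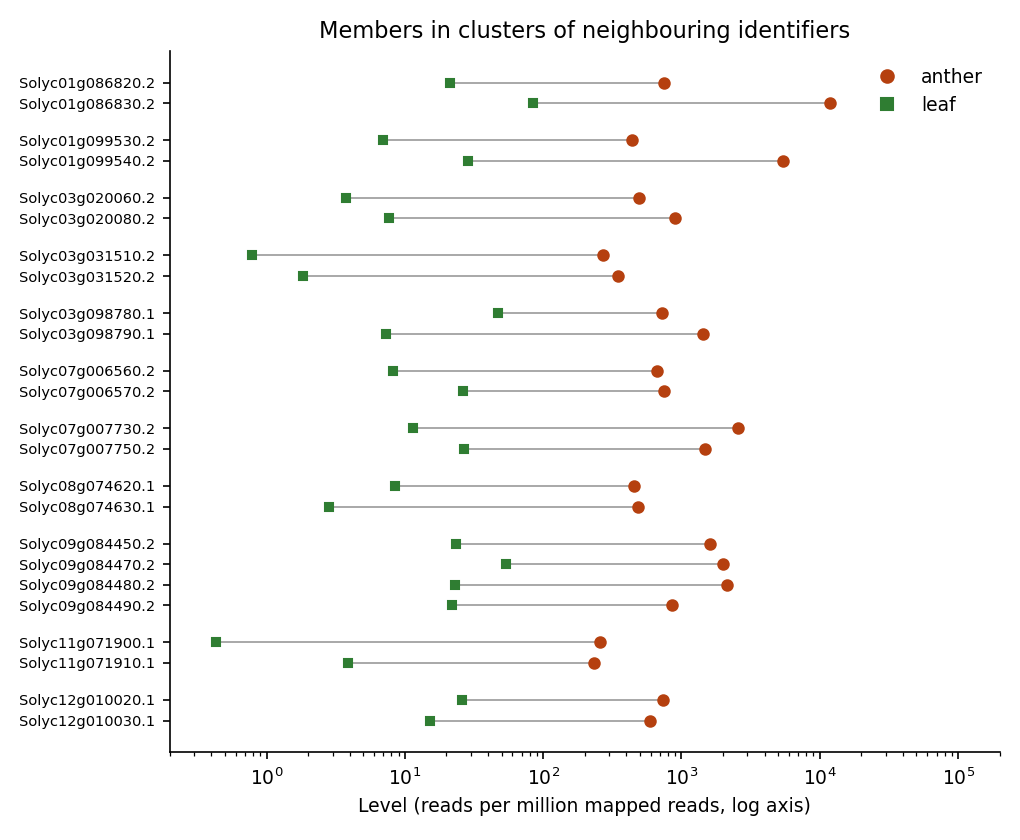
Level (horizontal, RPM on a log axis) of the 24 members in the 11 clusters of neighbouring identifiers, in anthers (circles) and in leaves (squares), with a line joining the values of each gene. Each cluster is a block of rows in identifier order. Members of a cluster mostly had similar anther levels, except in the first 2 clusters. Their leaf levels varied more than their anther levels in several clusters. The rule sets a lower limit on the anther level of a member and none on its leaf level, so neither likeness nor variation is a test.

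Fractional counts, taken here as reads divided among several places, were frequent among the members in anthers. They occurred in 54 of 117 members (46.2%) in anthers and in 18 (15.4%) in leaves. Of the other 1131 genes whose mean reached 100 RPM, 30.9% had fractional anther counts and 30.3% fractional leaf counts. The 66 genes higher in leaf mirrored the members, with 21.2% in anthers and 37.9% in leaves. Over all listed genes the shares were 19.6% in anthers and 17.2% in leaves. Counted as fractional in either library, the groups were closer: 49.6% of the members, 43.1% of the other 1131 genes and 43.9% of the genes higher in leaf. In the members and in the genes higher in leaf the share was higher in the tissue where the group was abundant, where it also had more reads per gene. The part of read number in these shares was not tested.

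Fractional members held most of the reads. They had 69.3% of the members' anther reads, and 9 of the 10 most abundant members were fractional in anthers. The exception was Solyc02g032910.1, with 2481 RPM in anthers and 13.0 RPM in leaves, named after its values were seen. Outside the 20 most abundant members 40 of 97 were fractional. In 24 of the 54 fractional members the anther count was a whole multiple of 0.5 within 1e-04 reads, and in the others it was not. Counts in clusters were fractional in 15 of 24 members (62.5%), and those outside in 39 of 93 (41.9%).

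The rule fixes a low leaf level in all members, so the next values only describe it. The 59 members with whole-number counts in both libraries had a median leaf level of 0.812% of the anther level. The 54 with fractional anther counts had a median of 1.05%. The files do not give how many reads of a gene were divided, so the part of a level that rests on them is unknown.

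The members were unevenly spread over the chromosomes in reads more than in number. Chromosome 1 carried 26 of them, 10.8% of its 240 abundant genes, and 34.6% of the members' anther reads. Chromosomes 3 and 7 carried 14 each and chromosome 2 carried 13. Chromosome 7 held 17.5% of the members' anther reads and chromosome 9 held 10.9% with 7 genes. A few genes weighed heavily in these read shares. Solyc01g009590.2 and Solyc01g086830.2 had 16143 and 11939 of the 48239 RPM of members on chromosome 1. Solyc09g008670.2 had 7922 of the 15215 RPM on chromosome 9. The share of abundant genes that were members ran from 4.83% on chromosome 6 to 21.1% on chromosome 11, where it was 4 of 19 genes. No member was on chromosome 0, the number used for sequence not placed on a chromosome, where 7 genes were abundant. By strand, 52 members (44.4%) were marked wat and 65 cri. The share marked wat was 50.5% of the other abundant genes, 60.6% of the genes higher in leaf and 50.1% of all listed genes. No test of these shares was run.

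Gene models whose identifier ends in the suffix 1 were common in the group. They made up 29 of 117 members (24.8%), against 9.73% of the other abundant genes and 16.7% of the genes higher in leaf. Over all listed genes, most of which are far less abundant, the share was 41.8%. Members with suffix 1 had a median of 529 RPM in anthers and 5.29 RPM in leaves. Those with suffix 2 had medians of 584 RPM in anthers and 8.24 RPM in leaves. The suffix is the version of the gene model in this naming scheme. These shares are descriptions without a test.

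The height of the highest read peak, set against the gene's reads, describes how sharply the tags gathered at 1 place. This peak share had a median of 26.9% in anthers over the 117 members and ran from 17.2% to 73.1%. Over the other abundant genes with at least 100 anther reads, peaks above the read number left out, the median was 24.6%. A peak share of at least 40% was found in 20 members (17.1%) and in 6.41% of those other genes.

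The suffix went along with this measure. Members with suffix 1 had a median peak share of 41.1% in anthers, and members with suffix 2 had 25.7%. Among the other abundant genes the medians were 42.5% for suffix 1 and 24.1% for suffix 2. The values were thus close for equal suffix, and the excess of sharp peaks among the members went with their larger share of suffix 1 models. The highest peak shares in the group belonged to Solyc03g020080.2 with 73.1%, Solyc10g075130.1 with 62.4% and Solyc03g020060.2 with 61.8%. The first and last of these share a cluster, and the 3 were named after their values were seen.

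**Figure D5:**
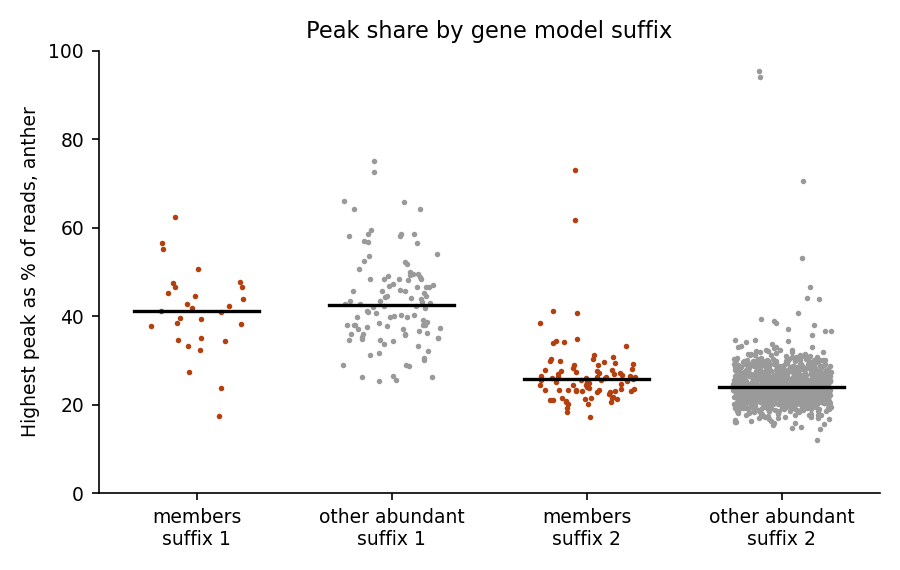
Highest peak as a percentage of the gene's reads in anthers (vertical) for members and other genes whose mean reached 100 RPM, split by the suffix of the gene model. Points are genes and bars are medians, which were 41.1% and 42.5% for suffix 1 and 25.7% and 24.1% for suffix 2.

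Peak shares could be compared between the tissues for members with enough leaf reads. In the 51 members with at least 100 reads in each tissue the median peak share was 26.9% in anthers and 28.0% in leaves. For these 51 genes the Pearson r between the libraries was 0.93 and the Spearman rho 0.92, given as a description. The difference of anther minus leaf ran from -14.0 to 9.16 percentage points, and exceeded 10 points in 3 genes. Its median size was 1.76 points, against 1.10 points in the other genes whose mean reached 100 RPM. In the genes higher in leaf it was 1.78 points. The groups were not matched for read number, and its part in these values was not tested. In the 63 members with fewer than 100 leaf reads and a leaf peak no higher than those reads, the difference ran from -48.7 to 4.20 points with a median size of 7.30, and exceeded 10 points in 24. The highest peak over few reads tends to be a larger share by counting alone, so these values do not show sharper peaks in leaves. The part of read number in them was not tested.

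In 3 members the leaf peak exceeded the number of leaf reads of the gene, and in 0 members in anthers. Solyc10g009390.2 had 8948 anther reads and 61 leaf reads, with a leaf peak of 115.5. The others were Solyc08g079910.1, with 2 leaf reads and a peak of 3, and Solyc11g071900.1, with 5 leaf reads and a peak of 7. These 3 were named after their values were seen. Such a peak holds more than the reads assigned to the gene, and the files do not state what it counts.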

How the data were processed

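Estimated counts of reads per gene, some of them fractional, were deposited by the authors for 1 anther and 1 leaf library. The mapped read count of each library is repeated on every row, per the file headers. The scaled value that the file headers call transcripts per 1000000 equalled the estimated count over the mapped reads times 1000000, so the deposited values are RPM without a length correction. The highest peak is a deposited signal value whose computation is not given. The submitters' processing notes name FastQC and no version. The aligner, counter, build and annotation release were not given in the sources used here.

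From these, RPM was recomputed, genes absent from a file were set to 0, and the rule was applied with Python 3.11.15, pandas 2.3.3 and SciPy 1.17.1. Counts were called whole within 1e-06 reads. Fold intervals are 95% exact conditional Poisson (Clopper-Pearson) intervals on rounded counts. Scaling factors (TMM) came from edgeR 4.0.16. No test across tissues was possible with 1 library each. The code for the rule and the intervals was checked on simulated Poisson counts. Such counts hold no variation beyond counting error, so this check says nothing of other errors in the deposited counts. The genes named are the 5 highest in anthers, the 2 highest and 2 lowest in ratio and in leaf level, those nearest the limits of the rule, the cluster of over 2 genes, the 5 highest clusters of 2 genes, and genes lying between cluster members. Any other is said to have been named after its values were seen. The members and these choices were made with earlier results of these data known. Alternatives were other limits, added values, scalings and spacings.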

Additional observations from a re-analysis of the deposited data

How the results depend on the processing

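The number of members, 117, became 199 when the limit on the mean was 50 RPM, 76 when it was 200 RPM, 677 with no limit on the mean and 59 with whole-number genes only. All other settings gave 100 to 157, and TMM and median-of-ratios scaling each left 112 of the same genes. The members' share of the anther reads, 20.1%, became 21.7%, 18.4% and 24.1% at those limits on the mean, 22.4% and 18.9% with a ratio of at least 5 and 20, and 20.2% and 20.0% with 0.1 and 5 RPM added. It was 21.1% when levels were scaled to reads on listed genes, 19.9% with TMM and 19.9% with median-of-ratios factors, 5.85% with whole-number genes only, 13.9% of the mapped reads and 12.8% without the 5 most abundant members. The 24 members in clusters became 41 at 50 RPM, 145 with no limit on the mean and 6 with whole-number genes only, and ranged from 19 to 34 with numbers at most 10 to 100 apart. Members with fractional anther counts, 54, became 82 at 50 RPM and 179 with no limit on the mean, and were not counted among whole-number genes, which have none by construction. The median leaf level, 7.98 RPM, became 5.29, 9.93 and 0.694 RPM at the 3 limits on the mean, 10.6 RPM with a ratio of at least 5 and 10.8 RPM when levels were scaled to reads on listed genes. Other limits and the whole-number setting admit or drop genes by construction, scaling also changes each level, and the share of mapped reads changes the denominator alone. For the 24 members named for their level, ratio or cluster, an added 5 RPM changed the log2 ratio by as much as -2.12 and TMM by as much as -0.14, and TMM moved the median log2 ratio of all genes of at least 1 RPM from 0.15 to 0.03. No paired analysis was possible because there was a single library of each kind, which also left no replicate to omit. Depth limits the leaf values: 66 members had fewer than 100 leaf reads.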

Other observations

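Beside the members by identifier number there were 164 non-member genes of at least 1 RPM that were the next such gene to a member, within 20 identifier numbers. Of these 29.3% were 2-fold or more higher in anthers, 8.54% were 10-fold or more higher in anthers, and 17.7% were 2-fold or more higher in leaves. Over all 16924 non-member genes of at least 1 RPM outside chromosome 0 the shares were 21.0%, 3.27% and 17.7%. Beside the 554 abundant genes less than 2-fold apart, 851 such genes gave 24.7%, 2.70% and 16.9%, with a median log2 ratio of 0.19. Beside the 66 abundant genes higher in leaf, 101 such genes held 16.8% that were 2-fold or more higher in anthers and 27.7% in leaves. The median log2 ratio was 0.28 beside members and -0.41 beside the leaf genes. The part of divided reads in these values was not tested.

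The same ratio held for many genes of lower level. With a mean of 10 to 100 RPM, 396 genes were 10-fold higher in anthers, and they took 3.64% of the anther reads on listed genes, against 20.1% for the 117 members. Their leaf level had a median of 1.69% of the anther level, and 12 of them had no leaf entry. With a mean of 1 to 10 RPM there were 164, which took 0.336% of the reads, and 43 had no leaf entry. Fractional anther counts occurred in 20.7% of those from 1 to 10 RPM, 23.0% of those from 10 to 100 RPM and 46.2% of the members. The share was 19.6% over all listed genes and 30.9% over the other 1131 genes whose mean reached 100 RPM. It was not computed over all genes of the 2 lower bands.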
